A study of Mus musculus with 5 samples.

Results

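The genes of oxidative phosphorylation were described in Prx1-derived cells of mouse hindlimb muscle before and after bone injury. They were chosen by symbol: nuclear genes whose names start with Ndufa, Ndufb, Ndufc, Ndufs, Ndufv, Sdh, Uqcr, Cox4 to Cox8 or Atp5, and mitochondrial genes whose names start with mt-Nd, mt-Cyt, mt-Co or mt-Atp, without pseudogenes, the Ndufaf assembly factors and Ndufa4l2. The rule gave 101 of the 31055 genes counted, 88 of them nuclear and 13 encoded in mitochondrial DNA. By complex the nuclear members were 36 genes of complex I, 4 subunits of complex II, 4 complex II assembly factors (Sdhaf1 to Sdhaf4), 8 genes of complex III, 19 of complex IV and 17 of complex V. The mitochondrial members were 7 genes of complex I, 1 of complex III, 3 of complex IV and 2 of complex V.

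Complexes I to IV form the electron transport chain of the inner mitochondrial membrane, which passes electrons from NADH and succinate to oxygen and pumps protons out of the matrix. Complex V, the ATP synthase, lets the protons return and makes ATP. Most subunits are nuclear gene products imported into mitochondria, whereas a small set that includes part of the core of complex I and the catalytic core of complex IV is transcribed and translated inside mitochondria. Several complex IV subunits exist as ubiquitous and tissue-restricted isoforms, for example the heart and muscle forms Cox6a2, Cox7a1 and Cox8b, and Cox4i2, an isoform linked to low oxygen. Stem and progenitor cells are often described as relying on glycolysis more than mature cells do.

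The cells were GFP+ cells sorted from hindlimb muscle of Prx1Cre;mTmG mice on the C57Bl/6 background and profiled by droplet single cell RNA sequencing. In these mice the Prx1 limb mesenchyme driver switches its descendants to GFP for life, so GFP marks a lineage and not a cell type or state. The mice were adults of either sex, all groups carried the same alleles, and the muscle was taken without periosteum or bone marrow. There were 5 conditions: d0 (uninjured), d3 and d5 after a non-stabilized tibial fracture, and d3 and d5 after polytrauma, in which the muscles around the fractured tibia were also crushed. Each condition was 1 library of cells pooled from 2 mice, so spread between mice was not measured, no test was run and no p-value is given.

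Of 34439 barcodes 32547 were retained, those in which 350 to 8000 genes were detected and less than 20% of unique molecular identifiers (UMIs) came from mitochondrial genes. The retained cells were 5367 at d0, 6086 at d3 post-fracture, 6727 at d3 post-polytrauma, 1752 at d5 post-fracture and 12615 at d5 post-polytrauma, with medians of 3328, 16961, 14945, 29727 and 15115 UMIs. Levels are given as CPM, a gene's UMIs in all retained cells of a library scaled to a fixed total over all genes. UMIs were counted at the 3′ end of transcripts, so levels were not divided by gene length. Intervals in brackets are exact Poisson 95% intervals and cover counting error only. For the 79 members with a mean of at least 100 CPM, the interval reached at most 5.64% of the CPM to either side at d0 and at most 3.37% in the other libraries. Differences are log2 ratios of CPM + 1, and a member is called higher or lower where it passed 1.5-fold on that scale.

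The conditions of 2 libraries do not follow their deposited labels. The one labelled d3 post-polytrauma holds 2001 barcodes. The same number stands in the study's source data for d5 post-fracture, so that library was taken for d5 post-fracture. In turn, d3 post-polytrauma is here the library that carries the d5 post-fracture label. Values with the labels as deposited are given with the processing. The barcode lists also fall into 2 sets. The d0, d3 post-fracture and d3 post-polytrauma libraries shared 405 to 525 barcodes pairwise and both d5 libraries shared 944, or 47.2% of the d5 post-fracture and 6.92% of the d5 post-polytrauma barcodes, but at most 3 were shared across the sets. Every comparison of d5 with d3 therefore lies across the barcode sets, and so does every d5 level set against d0 below. In both cases day or injury and barcode set cannot be told apart. The comparisons of d3 with d0, and of polytrauma with fracture on the same day, lie within 1 set.

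Marker lists showed mixed cells. The summed level of 5 mesenchymal progenitor genes (Prrx1, Cxcl12, Pdgfra, Ly6a, Cd34) was 934 to 2318 CPM in every library. The 6 cartilage genes summed to 81.1 to 302 CPM in 4 libraries and 2813 CPM at d5 post-fracture, and the 8 cell division genes to 24.7 CPM at d0 and 498 to 773 CPM after injury. Mural genes (7 genes, pericyte and smooth muscle) reached 211 CPM at d0 and 189 CPM at d5 post-fracture against 22.7 to 41.6 CPM in the rest. By the limits for a class given below, 216 cells (4.02%) carried them at d0 but 31 (1.77%) at d5 post-fracture. Endothelial genes were at 3.63 to 48.2 CPM, hematopoietic at 17.3 to 70.0 CPM and myogenic at 0.279 to 3.71 CPM. Tenocyte genes (5 genes) were at 1118 CPM at d0 and at most 612 CPM after injury. Erythroid genes, mostly hemoglobins, were at 297 CPM at d0 with 1 cell in that class, and at 40.0, 33.6, 2.90 and 60.7 CPM at d3 post-fracture, d3 post-polytrauma, d5 post-fracture and d5 post-polytrauma. Free RNA from outside the cells was not estimated. Sums over a library do not separate more cells of a type from more RNA per cell.

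Promoters of the nuclear members were searched for letters bound by known regulators of respiratory genes. RefSeq promoter windows (GRCm38.p6, 250 bases before to 50 after the start, 300 in all) were found for 70 of the 88 nuclear members, and each motif was searched on both strands. The motif of nuclear respiratory factor 1 (NRF1), a pair of GCGC blocks 2 bases apart of which the first is A, stood in 18 of the 70 windows (25.7%) against 5.19% of the 27025 gene windows in the table. The motif of YY1, which begins AAGATGG, stood in 4 (5.71% against 0.755%), that of the estrogen-related receptors (ERR), TCAAGGTCA, in 2 (2.86% against 0.466%), and that of ETS factors such as GABP, CCGGAAGTG, in 2 (2.86% against 2.25%). At least 1 of the 4 was found in 23 members (32.9% against 8.24%), and NRF1 letters were in 7 of 32 complex I, 2 of 3 complex II, 1 of 5 complex III, 1 of 14 complex IV and 5 of 12 complex V windows. The stretches below belong to some of the members named in the comparisons and show only motifs that end before the start. After the start, the windows of Atp5g3, Ndufa6 and Uqcrc1 also held NRF1 motifs and that of Sdhd an ERR motif. Each is written in the direction of transcription with the motif in capitals. A motif on the opposite strand appears as its reverse complement, as for Atp5g3 and Uqcrh.
Cox6a1 (NRF1, 2 sites; chr5:115349051-115349135, minus strand): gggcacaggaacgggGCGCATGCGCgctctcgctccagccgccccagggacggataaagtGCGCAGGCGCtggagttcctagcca
Sdha (NRF1, 3 sites; chr13:74350241-74350353, minus strand): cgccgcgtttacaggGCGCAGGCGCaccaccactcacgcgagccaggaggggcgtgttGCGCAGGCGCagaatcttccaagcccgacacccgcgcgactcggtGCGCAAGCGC
Sdhd (NRF1; chr9:50603904-50603943, minus strand): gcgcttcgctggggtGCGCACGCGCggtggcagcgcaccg
Atp5g2 (NRF1; chr15:102671065-102671104, minus strand): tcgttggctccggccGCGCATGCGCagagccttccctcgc
Atp5k (NRF1; chr5:108434425-108434464, minus strand): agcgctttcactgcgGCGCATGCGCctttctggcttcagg
Atp5g3 (ERR; chr2:73911355-73911393, minus strand): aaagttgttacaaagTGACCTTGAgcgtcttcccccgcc
Uqcrh (ETS; chr4:116075071-116075097, minus strand): acgaggagtatgccgCACTTCCGGcca
Neither Cox5a nor Atp5g1, members with high ratios at d3, held any of the 4 motifs in its window. These matches are letters in a window and not measured binding.

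Nuclear and mitochondrially encoded members moved in opposite directions. Nuclear members made up 2.26% of UMIs at d0, 2.98% at d3 post-fracture, 2.68% at d3 post-polytrauma, 1.87% at d5 post-fracture and 2.20% at d5 post-polytrauma. Mitochondrially encoded members made up 4.11%, 2.01%, 2.16%, 5.16% and 3.49% in the same order. The d3 libraries thus had the highest nuclear and the lowest mitochondrial shares, and d5 post-fracture the reverse. The ratio of mitochondrial to nuclear UMIs was 1.81 at d0, 0.672 and 0.807 at d3 post-fracture and post-polytrauma, and 2.76 and 1.58 at d5.

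Medians over single cells gave the same highest and lowest libraries. The median nuclear share per cell was 1.87% at d0 (quartiles 1.5 to 2.53), 2.96% at d3 post-fracture (2.61 to 3.26), 2.61% at d3 post-polytrauma (2.23 to 2.94), 1.83% at d5 post-fracture (1.44 to 2.28) and 2.18% at d5 post-polytrauma (1.90 to 2.41). The quartile ranges of d0 and d3 post-fracture did not overlap, whereas those of d0 and both d5 libraries did. The mitochondrial members were the whole of the genes on which cells were filtered, so their share is cut off at 20% per cell. That limit alone removed 0.337% and 0.477% of barcodes at d3, 1.31% at d0, and 8.35% and 5.24% at d5 post-fracture and post-polytrauma. The mitochondrial share also moved with depth within a library, from 8.77% in the 438 cells of d5 post-fracture with fewest UMIs to 4.24% in the 438 with most, and from 3.45% in the lowest to 1.78% in the highest 1522 cells at d3 post-fracture. The nuclear share was higher in deeper cells, from 2.00% in the 1342 d0 cells with fewest UMIs to 2.43% in the 1342 with most. At d3, between such cells, it went from 2.81% to 3.11% post-fracture and from 2.27% to 2.86% post-polytrauma. At similar depth, 1341 d0 cells (median 3891 UMIs) had 2.23% and 1682 d3 post-polytrauma cells (median 3980 UMIs) had 2.27%. By contrast, 1522 d3 post-fracture cells (median 2222 UMIs) had 2.81% and 1342 d0 cells (median 2660 UMIs) had 2.05%. The part of depth in the difference between libraries was not tested for either share. Thinning cells to 2000 UMIs cannot test it, because a random draw keeps the expected share of each cell. Cells with fewer UMIs were left out there, 1479, 722, 609, 314 and 1098 from d0 to d5 post-polytrauma in the order used above. After thinning, the mitochondrial share of all member UMIs was 64.2%, 43.4%, 48.0%, 76.5% and 66.1%. In all retained cells without thinning it was 64.5%, 40.2%, 44.7%, 73.4% and 61.3%.

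**Figure D1:**
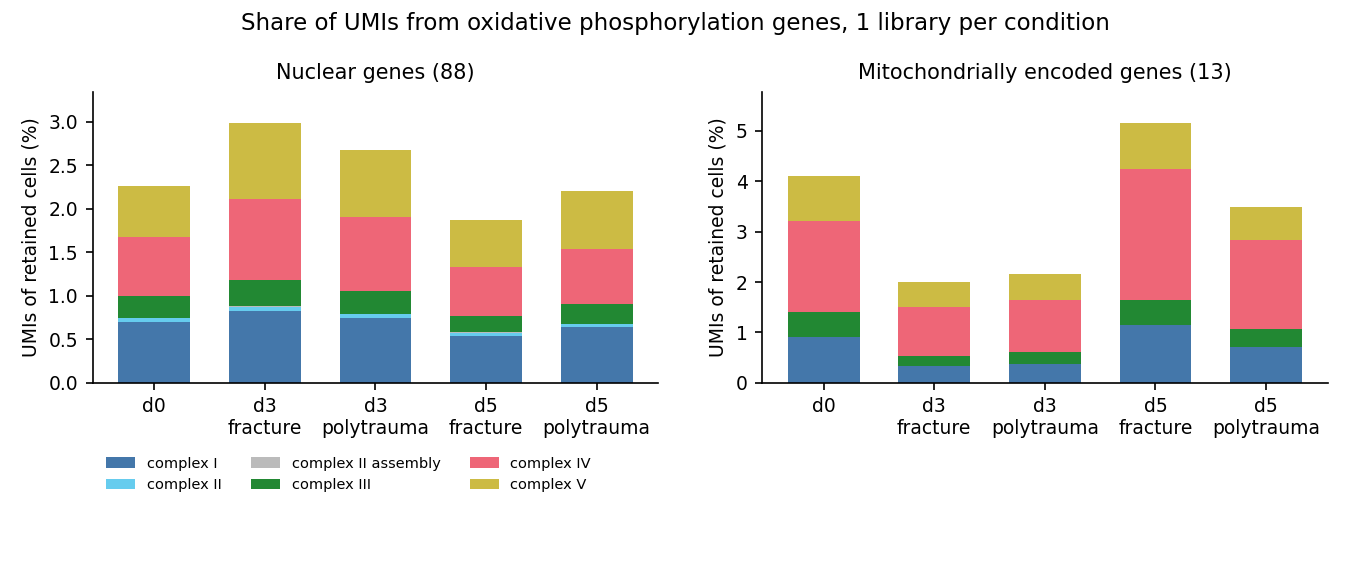
Share of the UMIs of retained cells (%, from 0) in each of 5 libraries, for nuclear members stacked by complex (left) and mitochondrially encoded members stacked by complex (right). Nuclear shares peak at 2.98% at d3 post-fracture, whereas mitochondrial shares are lowest there at 2.01% and highest at 5.16% at d5 post-fracture.

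Of the 80 nuclear members with a mean of at least 10 CPM, 57 were highest at d3 post-fracture and 49 were lowest at d5 post-fracture. The d0 library was highest for 13 and lowest for 18. Of the 13 mitochondrial members, 11 were highest at d5 post-fracture and 2 at d0, and 9 were lowest at d3 post-fracture and 4 at d3 post-polytrauma. The order of the nuclear members by level was close to the same everywhere, with Spearman rho across these 80 genes from 0.901 (d0 and d5 post-polytrauma) to 0.993 (both d3 libraries). Genes are not independent replicates.

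At d3 post-fracture, nuclear members lay above d0 while most genes lay below it. Of the 85 nuclear members with at least 20 UMIs over both libraries, 19 were 1.5-fold higher and 7 lower, beside 15.7% of 14646 genes higher and 38.5% lower. Their median log2 ratio was 0.30 and that of all genes -0.33, and 76 of the 85 lay above the median of all genes. Scaling by the median of gene ratios, which moves that median towards 0, made 59 members higher and 5 lower. That scaling moves all genes alike, and the shares of all genes under it are not given, here or below. Counts under it therefore have no background beside them. By complex the medians were 0.28 for I, 0.15 for II, 0.33 for III, 0.37 for IV and 0.42 for V. The 3 members that passed the filter on low UMIs nowhere were the testis forms Cox7b2 and Cox8c and a second row named Atp5o.

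At d3 post-polytrauma against the same d0 library, 12 of 85 nuclear members were higher and 7 lower (15.2% and 38.0% of all genes), with a median of 0.17 against -0.31 for all genes. With the other scaling the counts were 39 and 3. Complex medians ran from 0.10 (II) to 0.26 (V). Both d3 libraries were set against 1 d0 library, so these ratios share their reference.

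From d3 to d5 post-fracture most nuclear members lay lower, while the median of all genes lay higher. Of 84 nuclear members 3 were higher and 44 lower, beside 43.6% of 15134 genes higher and 8.75% lower, and the median was -0.60 against 0.45. Under the other scaling 2 were higher and 75 lower. Complex medians ran from -0.68 (V) to -0.46 (II), with 22 of 36 complex I members and 9 of 16 complex V members lower. From d3 to d5 post-polytrauma the same direction was smaller, with 1 of 85 nuclear members higher and 7 lower (32.5% and 5.93% of all genes), a median of -0.22 against 0.25, and 1 higher and 58 lower under the other scaling. The difference between the injuries was not tested.

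Few genes of any kind passed 1.5-fold between polytrauma and fracture at d3, members included. Of 84 nuclear members 2 were higher after polytrauma, Cox4i2 and Cox7a1, and 0 lower, beside 4.01% and 3.03% of all genes. The median was -0.17 against -0.01, and 11 of the 84 members lay above 0. At d5, 6 of 85 nuclear members were higher after polytrauma and 2 lower (5.04% and 13.4% of all genes), with a median of 0.27 against -0.08 and 67 members above 0. The other scaling gave 10 higher and 2 lower.

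**Figure D2:**
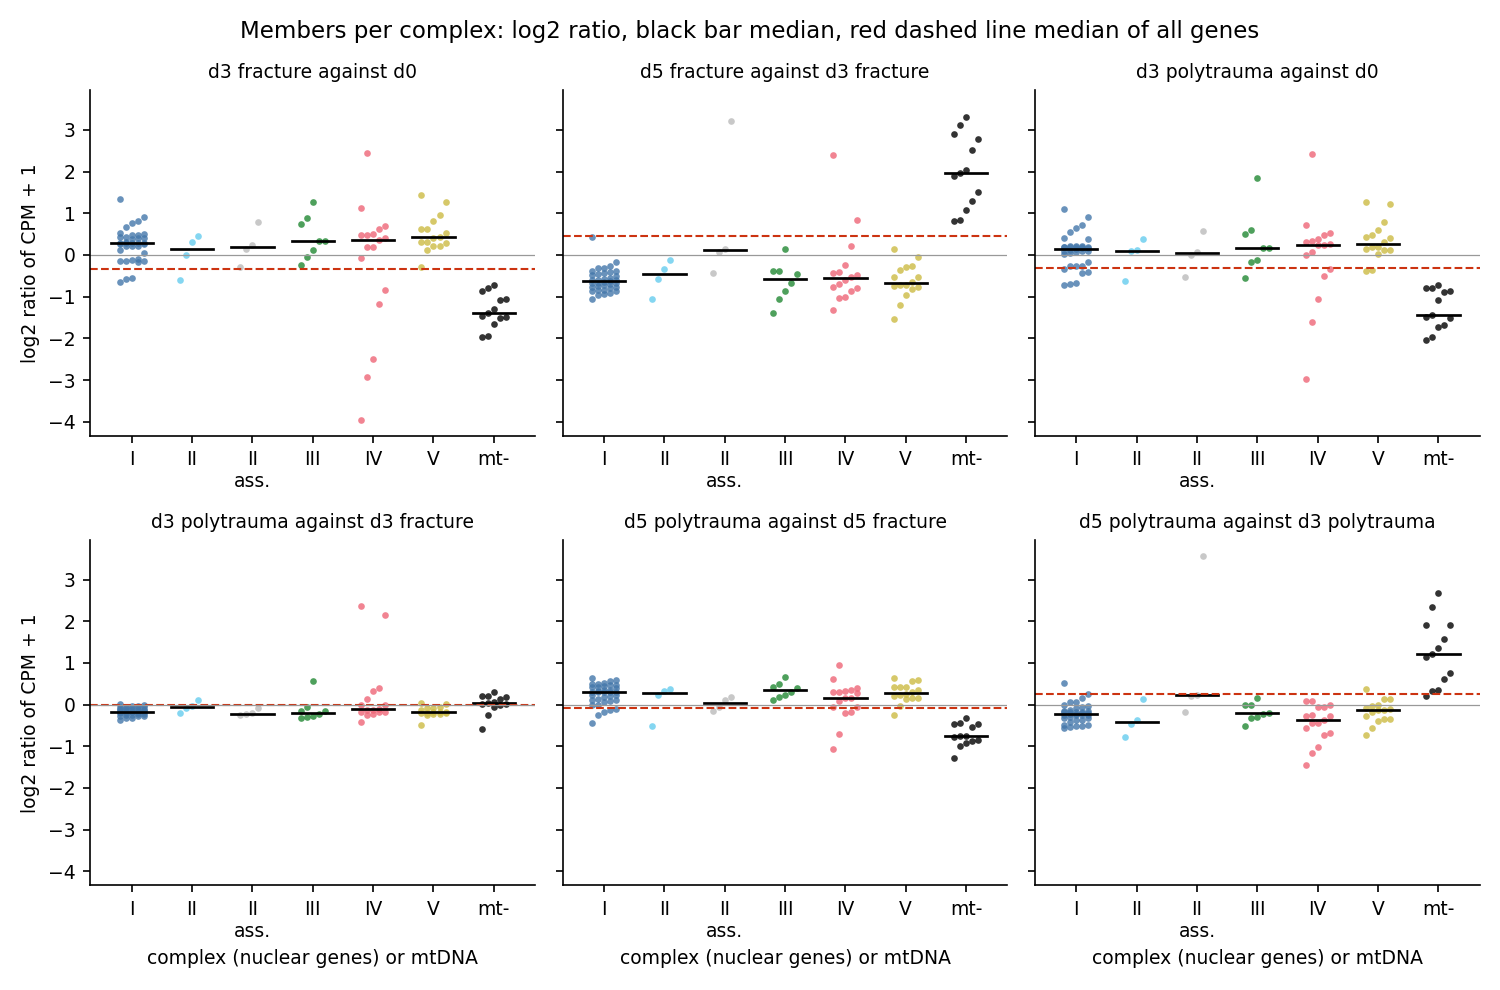
Log2 ratio of CPM + 1 for every member that passed the filter on low UMIs, in 6 comparisons, by complex of the nuclear genes and for the mitochondrially encoded genes (mt-). Black bars are medians and red dashed lines the median of all genes, which nuclear members exceed at d3 post-fracture against d0 (0.30 and -0.33) and fall short of at d5 post-fracture against d3 post-fracture (-0.60 and 0.45).

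Complex I takes electrons from NADH and its nuclear members made up 0.704% of UMIs at d0, 0.831% at d3 post-fracture, 0.745% at d3 post-polytrauma, 0.544% at d5 post-fracture and 0.640% at d5 post-polytrauma. Ndufa2, an accessory subunit, had the highest mean level, with 469, 571, 498, 331 and 419 CPM in that order. Ndufs1, the large iron-sulfur subunit of the NADH-oxidizing arm, had the lowest mean and an order of its own, with 37.3 CPM at d0, 24.9 and 22.8 CPM at d3 post-fracture and post-polytrauma, and 33.8 and 33.2 CPM at d5. It was lower at both d3 libraries than in the other 3.

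Ndufab1, the mitochondrial acyl carrier protein that is also a complex I subunit, went from 89.8 CPM at d0 to 231 CPM at d3 post-fracture, 194 CPM at d3 post-polytrauma, 143 CPM at d5 post-fracture and 165 CPM at d5 post-polytrauma. All 4 libraries after injury lay above d0, and the d3 post-fracture level was 2.55-fold that of d0. Ndufa10 behaved alike at d3, with 78.0 CPM at d0 and 147 CPM in each d3 library. Ndufa6 went the other way, from 278 CPM at d0 to 177, 168, 143 and 119.6 CPM at d3 post-fracture, d3 post-polytrauma, d5 post-fracture and d5 post-polytrauma, as did Ndufa1 with 258, 174, 162, 156 and 115 CPM. Ndufa6 was 1.65-fold lower at d3 post-polytrauma than at d0.

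Core subunits that carry flavin or iron-sulfur clusters were lower at d5 post-fracture. Ndufv1, the flavin-binding subunit, had 88.1 CPM at d0, 103 and 100 CPM at d3 and 56.0 and 85.1 CPM at d5 post-fracture and post-polytrauma. Ndufs8 had 104, 137, 121, 65.6 and 82.2 CPM from d0 to d5 post-polytrauma in the order used above. Of the 7 nuclear core subunits, 6 were lower at d5 than at d3 post-fracture, beside 8.75% of all genes lower and 43.6% higher. The median of the 7 was -0.72 against 0.45 for all genes, and the 1 exception was Ndufs1 (0.42). Between the injuries at d5, Ndufb7 was higher after polytrauma with 207 against 133 CPM.

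Between the injuries at d3 no complex I member passed 1.5-fold, beside 4.01% of all genes higher and 3.03% lower post-polytrauma. The lowest ratios were those of Ndufa9 (56.6 CPM post-polytrauma and 73.1 CPM post-fracture) and Ndufa3 (320.5 and 403 CPM).

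Complex II, succinate dehydrogenase, is the 1 complex made of nuclear subunits alone and joins the chain to the tricarboxylic acid cycle. Its 4 subunits took 0.0410%, 0.0435%, 0.0412%, 0.0285% and 0.0316% of UMIs from d0 to d5 post-polytrauma. Sdha, the flavoprotein whose promoter holds 3 NRF1 motifs, was highest at d0 with 104 CPM and lay at 69.0, 67.0, 63.4 and 74.0 CPM after injury. Sdhb, the iron-sulfur subunit with the highest mean of the complex, had 145, 178, 154, 85.6 and 111 CPM. Sdhc, 1 of the membrane anchors, had 95, 95.2, 103, 63.5 and 80.3 CPM. Sdhd, the other anchor and the lowest by mean, had 66.5, 92.1, 87.3, 72.4 and 50.4 CPM, and was 1.72-fold lower at d5 than at d3 post-polytrauma. The 4 subunits did not share an order across libraries.

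Sdhaf1, an assembly factor for the iron-sulfur subunit, had the highest ratio of all nuclear members between d5 and d3. Its levels were 2.17 CPM [1.55 to 2.97] at d0, 1.62 [1.38 to 1.88] at d3 post-fracture, 1.21 [1.0 to 1.44] at d3 post-polytrauma, 23.2 [21.9 to 24.6] at d5 post-fracture and 25.3 [24.6 to 26.0] at d5 post-polytrauma, from 39, 162, 125, 1209 and 5124 UMIs. Both d5 libraries lay far above the other 3, and both belong to the second barcode set, so day and barcode set cannot be told apart. The other assembly factors did not show such a step: Sdhaf2 was at 17.6 to 22.0 CPM, Sdhaf3 at 8.24 to 11.5 CPM and Sdhaf4 at 26.9 to 52.3 CPM over the 5 libraries. Genes outside the members moved with the same step, among them the assembly factors Ttc19 (22.1, 15.5, 15.1, 69.3 and 74.5 CPM from d0 to d5 post-polytrauma) and Cox11 (2.40, 2.79, 3.38, 18.5 and 15.9 CPM). Coq2 of ubiquinone synthesis (8.42, 5.14, 5.09, 25.9 and 30.2 CPM), the ribosome gene Mrps30 (5.02, 4.62, 4.5, 19.7 and 24.7 CPM) and the regulator Yy1 (35.5, 22.5, 23.0, 83.6 and 93.2 CPM) did so too. These were chosen after their values were seen. Sdhaf1 lies on chromosome 7 at 30321406-30323895 in GRCm38.

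Complex III passes electrons from ubiquinol to cytochrome c. Its 8 nuclear members took 0.25%, 0.298%, 0.263%, 0.185% and 0.229% of UMIs. Uqcrfs1, the Rieske iron-sulfur subunit at the catalytic centre and the lowest by mean, had 28.0 CPM [25.6 to 30.5] at d0, 69.5 [67.9 to 71.2] at d3 post-fracture, 103 [101 to 105] at d3 post-polytrauma, 76.8 [74.5 to 79.3] at d5 post-fracture and 101 [99.6 to 102] at d5 post-polytrauma. Every library after injury lay above d0, and polytrauma lay above fracture on both days, by 1.47-fold at d3. Most complex III members instead lay lower after polytrauma at d3, and 1 of 8 ratios was above 0.

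Other subunits of complex III had their highest level at d3 post-fracture or d0. Uqcrc1, a core protein, had 126, 210.3, 179.7, 79.1 and 125 CPM and was 2.64-fold lower at d5 than at d3 post-fracture. Uqcrq, a small subunit, had 337, 621, 515, 296 and 415 CPM. Uqcrh, the hinge protein near cytochrome c and the highest by mean, had 646, 626, 598, 479 and 514 CPM and was highest at d0.

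Complex IV, cytochrome c oxidase, reduces oxygen and held both the highest and the lowest ratios of the nuclear members at d3 against d0, after either injury. Its nuclear members took 0.674%, 0.931%, 0.850%, 0.561% and 0.626% of UMIs. Cox5a, a subunit of the mature enzyme on chromosome 9 (57521274-57532426), had 68.4 CPM [64.6 to 72.3] at d0, 375 [371 to 379] at d3 post-fracture, 372 [368 to 375] at d3 post-polytrauma, 232 [228 to 236] at d5 post-fracture and 357 [355 to 360] at d5 post-polytrauma. The d0 library stood below all others, 5.42-fold at d3 post-fracture, and the d0 level was 42.5 to 123 CPM in every set of d0 cells split by markers against 320.4 to 405 CPM in the sets of d3 post-fracture. Its partner Cox5b differed far less, with 409.8, 630.3, 577, 345 and 429 CPM.

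Most ubiquitous subunits of complex IV had their highest levels at d3 post-fracture and their lowest at d5. Cox4i1, the ubiquitous form of subunit 4 and the highest by mean of the complex, had 981 CPM at d0, 1298 and 1281 CPM at d3 post-fracture and post-polytrauma, and 646 and 803 CPM at d5. Cox8a had 1000, 1139, 1049, 658 and 869 CPM in the order used above. Cox6a1, with 2 NRF1 motifs in its promoter, had 669, 930.5, 798, 369.9 and 354 CPM and was 2.51-fold lower at d5 than at d3 post-fracture and 2.25-fold lower post-polytrauma. Both d5 libraries lay below d0 for Cox6a1. Ndufa4, first assigned to complex I and now known as a complex IV subunit, had 311, 679.8, 509, 509 and 540.3 CPM, lowest at d0.

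The further subunits of the enzyme named here were lowest at d5 post-fracture. Cox6b1 had 480.1, 778, 688, 383 and 462 CPM and Cox7a2, the ubiquitous form of subunit 7a, had 506, 573, 505, 336 and 418 CPM. Cox7b had 297, 425, 374, 281 and 314 CPM. Cox7a2l was highest at d3 post-polytrauma with 336 CPM and had 270.2 CPM at d0, 257 CPM at d3 post-fracture and 179 and 200.2 CPM at d5.

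Tissue-restricted isoforms of complex IV had lower CPM in all libraries after injury than at d0. For Cox7a1 at d3 post-polytrauma this depended on scaling, with a log2 ratio against d0 of -0.33, or 0.05 under the other scaling. Cox4i2 (chromosome 2, 152754173-152765037) had 69.6 CPM [65.8 to 73.5] at d0, 3.52 [3.16 to 3.91] at d3 post-fracture, 22.3 [21.4 to 23.2] at d3 post-polytrauma, 23.0 [21.7 to 24.3] at d5 post-fracture and 10.5 [10.1 to 11] at d5 post-polytrauma, from 1248, 353, 2311, 1195 and 2128 UMIs. It was highest at d0 and 15.6-fold lower at d3 post-fracture, and d3 post-polytrauma and d5 post-fracture did not differ beyond counting error. Its share of the UMIs of Cox4i1 and Cox4i2 together was 6.62% at d0, 0.270% at d3 post-fracture, 1.71% at d3 post-polytrauma, 3.43% at d5 post-fracture and 1.29% at d5 post-polytrauma.

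The injuries differed for Cox4i2 in opposite directions on the 2 days. At d3 it was 5.15-fold higher post-polytrauma than post-fracture, and at d5 it was 2.08-fold lower. Cells with cartilage genes moved with the d5 value. At d5 post-fracture, 486 cells (27.7%) carried cartilage genes and 932 of the 1195 Cox4i2 UMIs (78.0%), with 52.3 CPM in these cells and 7.69 CPM in the others. At d5 post-polytrauma such cells were 3.76% and held 12.3% of Cox4i2 UMIs, with 48.4 and 9.46 CPM. The class is a range of a score, and 530 and 1227 cells lay near its limit at d5 post-fracture and post-polytrauma. Without the cells with cartilage genes, Cox4i2 was at 7.69 CPM at d5 post-fracture and 9.46 CPM at d5 post-polytrauma, and the log2 ratio of polytrauma to fracture was 0.27 in place of -1.06. From d3 to d5 post-fracture the ratio was then 0.96 in place of 2.41.

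Cells with mural genes also held much Cox4i2, which is known in pericytes. In these cells it was at 459 CPM at d0, 237 CPM at d3 post-fracture and 185 CPM at d5 post-polytrauma, against 50.1, 2.06 and 9.71 CPM in the other cells. At d0 and at d3 post-fracture they held 31.3% and 41.9% of its UMIs, but only 3.98% at d3 post-polytrauma, the library where the summed mural genes were lowest. Without them the d3 values were 2.06 CPM post-fracture and 21.5 CPM post-polytrauma, so the difference between injuries at d3 was larger there (log2 2.88 in place of 2.37). At d3 post-polytrauma, Cox4i2 was at 21.2 CPM in cells with progenitor genes and 24.2 CPM in the others.

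Cox7a1, the heart and muscle form of subunit 7a, followed the same order at d3 with lower levels. It had 14.0 CPM [12.4 to 15.9] at d0, 1.67 [1.42 to 1.94] at d3 post-fracture, 11 [10.3 to 11.6] at d3 post-polytrauma, 1.27 [0.981 to 1.61] at d5 post-fracture and 3.39 [3.14 to 3.65] at d5 post-polytrauma, from 252, 167, 1135, 66 and 687 UMIs. Polytrauma lay above fracture on both days, by 4.48-fold at d3 and 1.93-fold at d5. Muscle fibre genes (12 genes, among them Ckm and Acta1) moved with it in part. They summed to 46.3, 13.1, 19.0, 15.3 and 33.3 CPM from d0 to d5 post-polytrauma, also highest at d0 and higher post-polytrauma on both days. From d3 to d5 post-polytrauma, however, the fibre genes rose from 19.0 to 33.3 CPM while Cox7a1 fell from 11 to 3.39 CPM. The 5 myogenic genes (among them Myod1 and Pax7) were likewise higher post-polytrauma, with 3.71 against 0.469 CPM at d3 and 1.29 against 0.327 CPM at d5, but stood at 0.279 CPM at d0. At d3 post-polytrauma Cox7a1 was at 12.0 CPM in cells with progenitor genes and 9.22 CPM in the others, and at 24.3 CPM in the 144 cells with hematopoietic genes. That library had 5 cells with myogenic and 6 with muscle fibre genes, and the part of muscle RNA in the Cox7a1 levels was not tested.

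Cox8b, the heart and muscle form of subunit 8, was near 0 in all libraries after injury. Its UMIs were 129 at d0 and 8, 4, 13 and 22 in the other libraries, or 7.19 CPM [6.00 to 8.54] at d0 and 0.0386 to 0.25 CPM after injury. The fold on the CPM + 1 scale, 7.58 at d3 post-fracture, understates that difference. The adipocyte list (6 genes, among them Ucp1 and Adipoq) was highest at d0 too, with 2.79 CPM from 50 UMIs against 0.0965 to 0.211 CPM after injury. The mesenchymal progenitor, tenocyte, mural, endothelial, muscle fibre and erythroid lists were also highest at d0. The part of any of these in the Cox8b level was not tested. At d0 it was at 22.3 CPM in cells with tenocyte genes and 5.42 CPM in the others. Cox6b2, a form of subunit 6b best known from testis, had 11.1, 4.35, 4.86, 8.49 and 4.86 CPM. Cox6a2 had 18, 12, 42, 3 and 71 UMIs and was at 0.0576 to 1.0 CPM over the libraries.

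**Figure D3:**
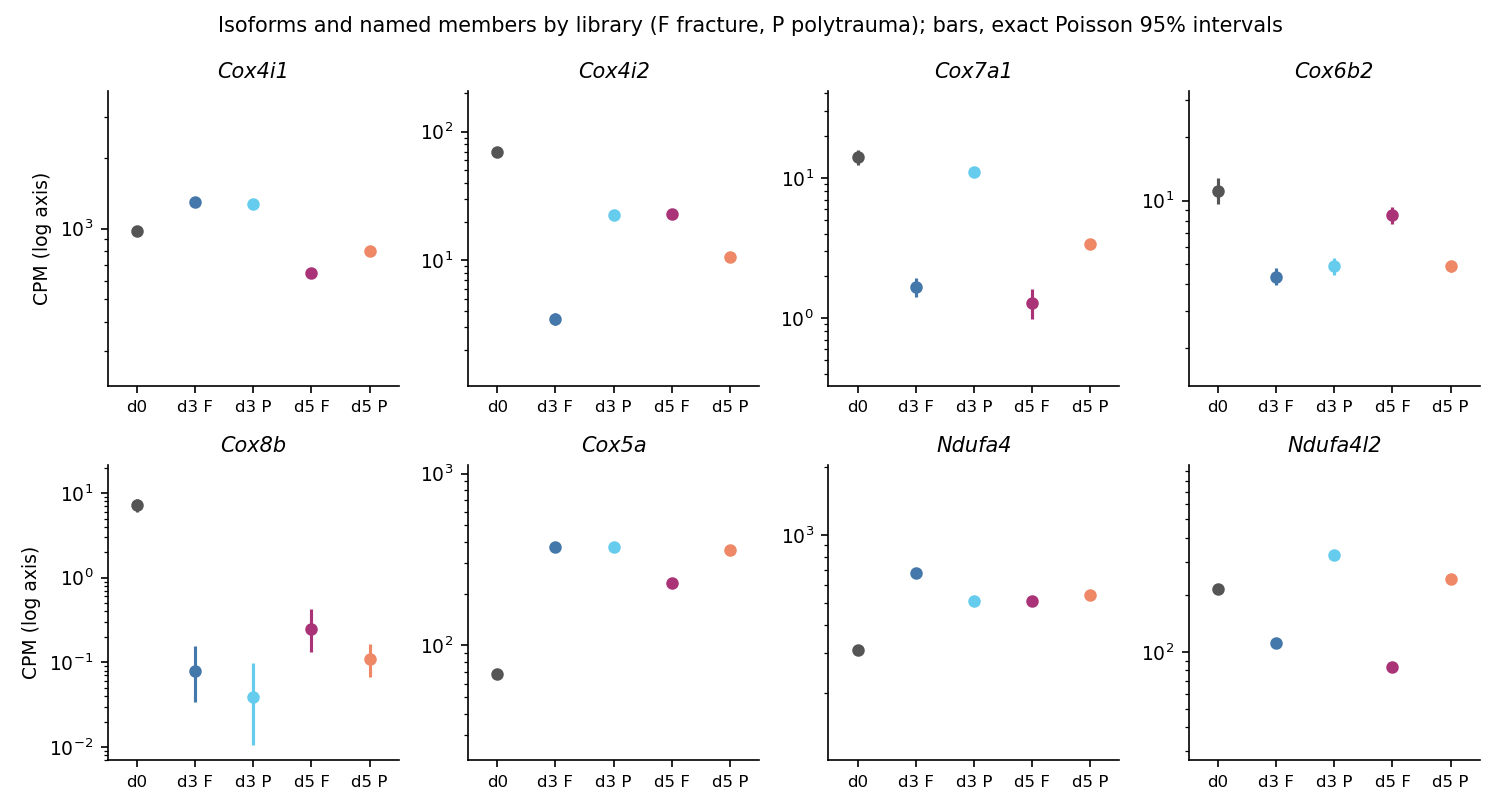
CPM on a log axis in each of 5 libraries for 7 complex IV members and for Ndufa4l2, with exact Poisson 95% intervals as bars. Cox4i2 falls from 69.6 CPM at d0 to 3.52 CPM at d3 post-fracture but only to 22.3 CPM at d3 post-polytrauma, whereas Cox5a goes from 68.4 to 375 and 372 CPM.

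Ndufa4l2, the paralog of Ndufa4 induced by low oxygen and outside the members by rule, was higher post-polytrauma on both days. With the conditions as deposited it was lower post-polytrauma on both days. It had 214 CPM at d0, 111 CPM at d3 post-fracture, 324 CPM at d3 post-polytrauma, 83.1 CPM at d5 post-fracture and 242 CPM at d5 post-polytrauma, a log2 ratio of 1.53 between injuries at d3 and at d5. Its share of the summed UMIs of Ndufa4 and Ndufa4l2 was 40.8%, 14.1%, 38.9%, 14.0% and 31.0%. Cells with mural genes held 16.5%, 5.98%, 1.25%, 12.3% and 1.48% of Ndufa4l2 UMIs from d0 to d5 post-polytrauma in the order used above. Cells with cartilage genes held 50.8% at d5 post-fracture and 1.56% at d5 post-polytrauma. Without the cells with cartilage genes, Ndufa4l2 was at 62.2 CPM at d5 post-fracture and 245 CPM at d5 post-polytrauma.

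Complex V was the complex with the highest median ratio at d3 post-fracture against d0 and the lowest from d3 to d5 post-fracture. Its nuclear members took 0.589%, 0.873%, 0.773%, 0.541% and 0.666% of UMIs. Atp5b, the catalytic beta subunit of F1 (chromosome 10, 128083273-128090391), had 670.3 CPM [658 to 682] at d0, 1039 [1032 to 1045] at d3 post-fracture, 884 [879 to 890] at d3 post-polytrauma, 359.7 [355 to 365] at d5 post-fracture and 530.3 [527 to 533] at d5 post-polytrauma. Both d5 libraries lay below d0, and the drop from d3 to d5 post-fracture, 2.88-fold, was the lowest ratio among nuclear members. Its partner Atp5a1, the alpha subunit, had 331, 512, 465, 313 and 422 CPM. The 5 members of the F1 part had a median of 0.53 at d3 post-fracture against d0.

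The c-ring, through which protons pass, is encoded by Atp5g1, Atp5g2 and Atp5g3, which give the same mature protein. Atp5g1 had 287 CPM [279 to 295] at d0, 778 [772 to 783] at d3 post-fracture, 669.8 [665 to 675] at d3 post-polytrauma, 339 [334 to 344] at d5 post-fracture and 525 [522 to 528] at d5 post-polytrauma. Atp5g2 had 298, 719, 723, 422 and 569 CPM, and Atp5g3 had 231, 267, 255, 206 and 238 CPM. Atp5g1 and Atp5g2 thus carried the difference at d3, and the share of Atp5g3 among the UMIs of the 3 genes was 28.3% at d0, 15.2% and 15.5% at d3 post-fracture and post-polytrauma, and 21.3% and 17.9% at d5. Atp5e, the epsilon subunit and the highest by mean of complex V, had 603, 799, 691, 780.2 and 764 CPM, within 1.5-fold in all 6 comparisons.

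Other members of the ATP synthase did not share an order across libraries. Atp5l, a membrane subunit, had 692, 932, 791, 479 and 534 CPM. Atp5k, another membrane subunit with an NRF1 motif, had 389 CPM at d0 and 425 CPM at d3 post-fracture, but 299.5 CPM at d3 post-polytrauma, the lowest ratio between the injuries at d3 among nuclear members. It had 352 and 388 CPM at d5 post-fracture and post-polytrauma. Atp5s, a coupling factor and the lowest by mean of the 16 that passed the filter, was at 4.78 to 6.58 CPM.

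All 13 mitochondrially encoded members were 1.5-fold lower at d3 than at d0 after either injury (38.5% and 38.0% of all genes lower), with medians of -1.39 post-fracture and -1.45 post-polytrauma. From d3 to d5 post-fracture all 13 were higher (43.6% of all genes), with a median of 1.97. From d3 to d5 post-polytrauma 10 were higher (32.5% of all genes), with a median of 1.22. Under the other scaling 10 and 8 of the 13 were lower at d3, and 10 and 8 higher at d5, and mt-Nd1, mt-Co3 and mt-Atp6 turned from above to below 0 between d3 and d5 post-polytrauma. Between the injuries at d3, mt-Atp8 alone passed 1.5-fold (35 against 53.0 CPM, beside 3.03% of all genes lower), and the median was 0.03. At d5, 8 were lower post-polytrauma (13.4% of all genes) with a median of -0.76, and all 13 ratios lay below 0.

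The members did not move by 1 common factor. The catalytic subunit mt-Co1 had 6018 CPM at d0, 3634 and 3664 CPM at d3 post-fracture and post-polytrauma, 10371 CPM at d5 post-fracture and 6151 CPM at d5 post-polytrauma. The proton channel subunit mt-Atp6 had 8764, 5016, 5064, 8810 and 6425 CPM in the order used above. Complex I members spread more. mt-Nd2 had 1444, 368, 451, 2099 and 1161 CPM, and mt-Nd3 had 459, 118, 117, 891 and 444 CPM, with d5 post-fracture above and d5 post-polytrauma below d0 for both.

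By complex, the complex I genes gave the highest median ratio from d3 to d5. Their median was 2.79 post-fracture and 1.92 post-polytrauma, against 1.51 and 0.75 for the 3 complex IV genes. mt-Nd4l had 192, 68.1, 57.4, 681 and 373 CPM, mt-Nd5 had 288, 109, 105, 762 and 400.5 CPM, and mt-Nd6 had 14.9, 4.59, 4.69, 48.0 and 27.6 CPM. In these 3 genes both d5 libraries stood above d0. By contrast mt-Nd1 had 3739, 1788, 2039, 3204 and 2346 CPM, with both d5 libraries below d0. Its log2 ratios from d3 to d5 were the lowest of the complex I genes, 0.84 post-fracture and 0.20 post-polytrauma. mt-Nd4 had 2972, 943, 1042, 3858 and 2284 CPM.

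The remaining genes lay between. mt-Cytb, the mitochondrial subunit of complex III, had 4894, 1999, 2309, 4926 and 3554 CPM. In complex IV, mt-Co2 had 3196, 1759, 1852, 6894 and 5522 CPM and mt-Co3 had 8942, 4197, 4871, 8873 and 6093 CPM. In both d5 libraries mt-Co2 stood above its d0 level, while mt-Co3 did not. mt-Atp8 had 148, 53.0, 35, 201 and 82.6 CPM. mt-Nd4l and mt-Nd4 overlap, as do mt-Atp8 and mt-Atp6, and mt-Nd6 lies on the other strand, so how reads were split between such neighbours is uncertain, as it is for reads shared with nuclear copies of mitochondrial DNA.

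**Figure D4:**
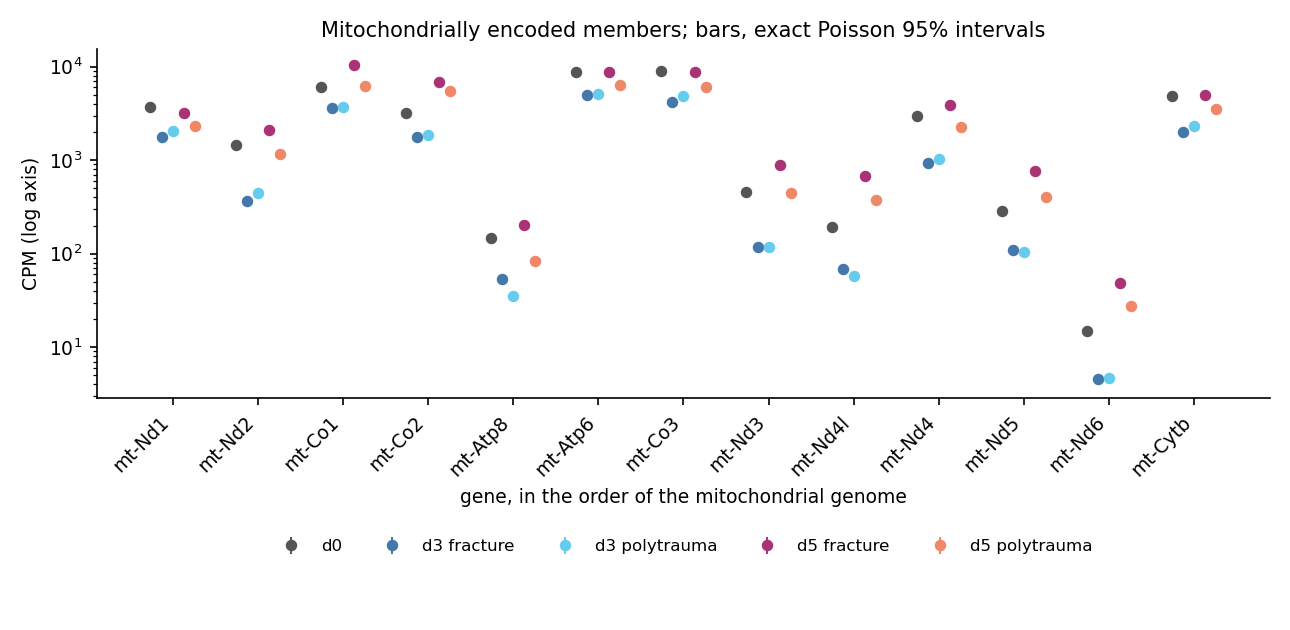
CPM on a log axis of the 13 mitochondrially encoded members in the order of the mitochondrial genome, with 1 point per library and exact Poisson 95% intervals. Both d3 libraries lie below d0 for every gene, and mt-Nd4l, mt-Nd5 and mt-Nd6 lie above d0 in both d5 libraries.

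Within a library, nuclear levels differed between cells that carried different marker genes. A cell was put in a class where it held at least 3 UMIs of at least 2 genes of a marker list and at least 10 such UMIs per 10000. These classes are ranges of a score and may overlap, and many cells lay near the limit: between 5 and 20 UMIs per 10000 there were 357 cells for mural genes at d0 against 216 in the class, 530 for cartilage genes at d5 post-fracture against 486, and 1227 at d5 post-polytrauma against 474. The 216 cells with mural genes at d0 had 4.21% of UMIs on nuclear members against 2.17% in the other cells, and 9.02% against 3.86% on mitochondrial members. In them 66 of 84 nuclear members were 1.5-fold higher and 3 lower than in the other cells, beside 18.4% of genes higher and 39.9% lower. All complexes shared in it, with log2 differences of the sums from 0.86 (I) to 1.13 (III). In the 82 such cells of d3 post-fracture and the 90 of d5 post-polytrauma the nuclear shares were 3.02% against 2.98% and 2.32% against 2.20%. Median UMIs per cell of class and other cells were 3904 and 3295 at d0, but 6103 and 17098 at d3 post-fracture.

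Cells with mesenchymal progenitor genes had lower nuclear levels at d0. They were 3145 cells with 1.84% of UMIs on nuclear members against 3.00% in the rest, and 2 members were higher and 48 lower of 84 (15.5% and 16.4% of genes). Mitochondrial members were at 2.92% against 6.20%. After injury the direction was kept in all 4 libraries with smaller gaps, 2.86% against 3.03% at d3 post-fracture, 2.62% against 2.79% at d3 post-polytrauma, 1.55% against 2.11% at d5 post-fracture and 2.14% against 2.25% at d5 post-polytrauma. At d5 post-fracture 0 members were higher and 22 lower of 83 (13% and 16.2% of genes).

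Cells with cartilage genes had higher nuclear levels at d5 post-fracture. There the shares were 2.17% in 486 cells and 1.71% in the rest, with 11 members higher and 1 lower of 83 (11.2% and 15.6% of genes) and 77 of 83 ratios above 0. At d5 post-polytrauma they were 2.36% and 2.20%, with 1 higher and 1 lower (6.52% and 8.08% of genes). Cells with division genes lay close to the others at d3 (3.06% against 2.97% post-fracture, 2.82% against 2.65% post-polytrauma) and at d5 post-polytrauma (2.22% against 2.20%), and above them at d5 post-fracture (2.23% against 1.81%), where the dividing cells also carried a median of 12.4 cartilage UMIs per 10000. Cells with tenocyte genes lay below the rest in all 5 libraries, from 1.90% against 2.31% at d0 to 2.15% against 2.21% at d5 post-polytrauma.

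**Figure D5:**
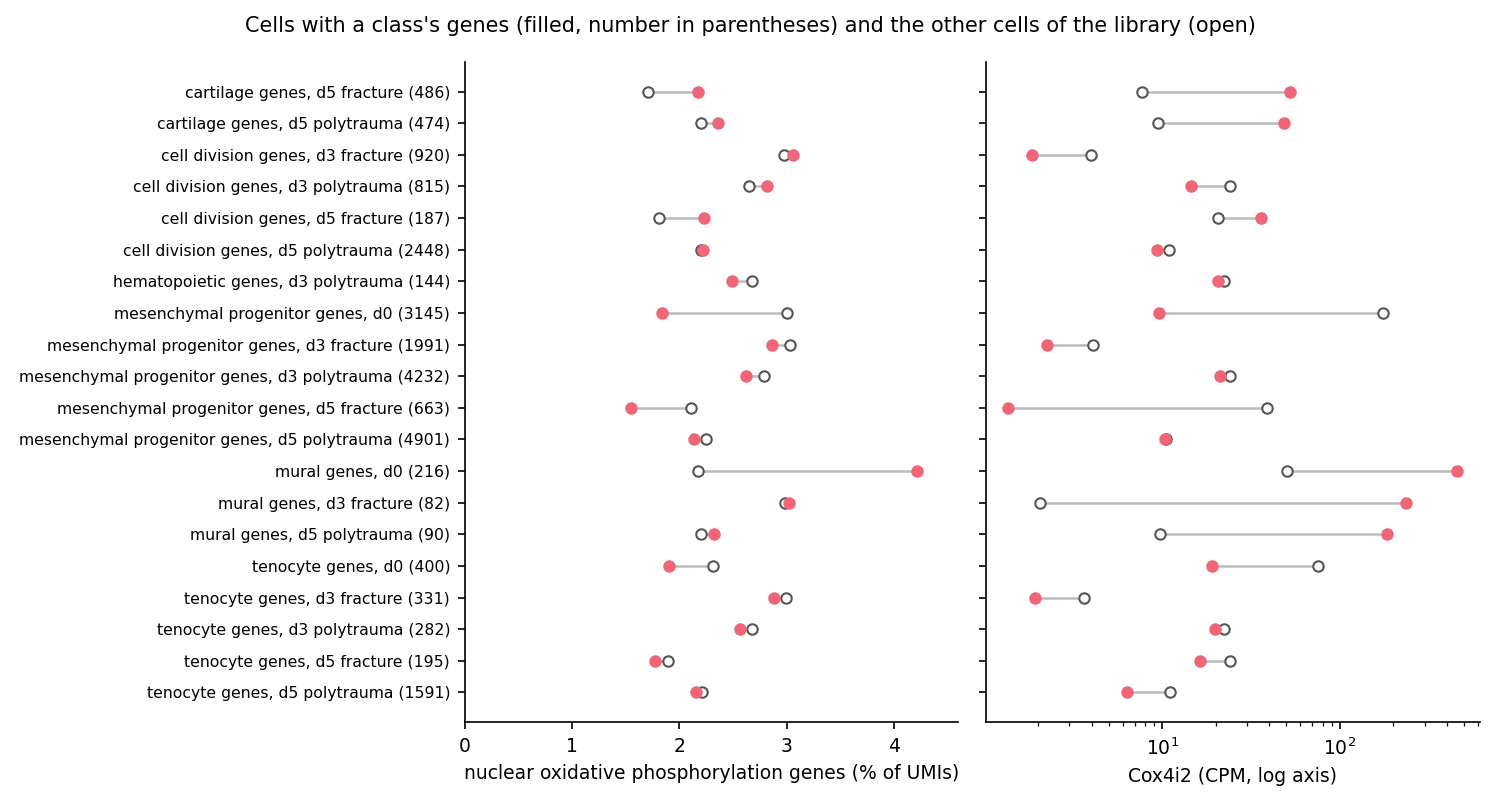
Nuclear members as % of UMIs (left) and Cox4i2 in CPM on a log axis (right) in cells that carry a class's genes (filled, number of cells in parentheses) and in the other cells of the same library (open). The cells with mural genes at d0 stand apart with 4.21% against 2.17%, and cells with progenitor genes lie left of the open point in every library.

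Other mitochondrial genes did not all move with the members. Of 78 mitochondrial ribosome genes, which make the mitochondrially encoded subunits, 51 were 1.5-fold higher and 2 lower at d3 post-fracture than at d0 (15.7% and 38.5% of all genes), with a median of 0.79. At d3 post-polytrauma 47 were higher and 2 lower (15.2% and 38.0% of all genes), and from d3 to d5 post-fracture 3 were higher and 41 lower (43.6% and 8.75% of all genes). Mrps34 went from 10.5 CPM at d0 to 54.3, 63.0, 48.8 and 63.1 CPM. Mitochondrial transcripts were lowest in the d3 libraries, in which these ribosome genes were high. Tfam, which packages mitochondrial DNA and helps to start its transcription, stayed at 16.1 to 21.1 CPM. Of the 12 genes for mitochondrial DNA expression 2 (16.7%) were higher and 1 (8.33%) lower at d3 post-fracture, beside the 15.7% and 38.5% of all genes. The elongation factor Tufm had 23.9, 61.3, 59.7, 26.0 and 42.1 CPM.

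Of 43 assembly factors that passed the filter, 7 (16.3%) were higher and 3 (6.98%) lower at d3 post-fracture, so the share that was higher was near that of all genes (15.7%) and the share that was lower was below it (38.5%). The counts from d3 to d5 post-fracture were 7 (16.3%) higher and 9 (20.9%) lower, beside 43.6% and 8.75% of all genes, and between the injuries at d3 the counts were 0 and 0, beside 4.01% and 3.03%. Cox18, which inserts mt-Co2 into the membrane, had 5.18, 24.1, 29.3, 21.1 and 30.1 CPM. Of 17 tricarboxylic acid cycle genes, 5 (29.4%) were higher and 1 (5.88%) lower at d3 post-fracture (15.7% and 38.5% of all genes), and 0 higher and 6 (35.3%) lower from d3 to d5 post-fracture (43.6% and 8.75% of all genes). Mdh2, malate dehydrogenase, had 202, 457, 368, 172 and 255 CPM and Idh2, isocitrate dehydrogenase, 40.5, 167, 143, 105 and 144 CPM. Among 15 electron carrier genes 3 (20.0%) were higher and 4 (26.7%) lower at d3 post-fracture, beside the same 15.7% and 38.5%, and Cycs, cytochrome c, had 420.1, 458, 356, 171 and 173 CPM.

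Of the 6 regulators that passed the filter there, 0 were higher and 3 lower at d3 post-fracture than at d0, beside 15.7% and 38.5% of all genes. Ppargc1a, the coactivator PGC-1 alpha that drives mitochondrial biogenesis, had 10.6 CPM at d0, 0.678 and 1.0 CPM at d3 post-fracture and post-polytrauma, 7.11 CPM at d5 post-fracture and 0.760 CPM at d5 post-polytrauma. It was low in the d3 libraries, in which nuclear members were high. The 6 genes linked to low oxygen had 3 higher and 2 lower at d3 post-fracture against d0 (15.7% and 38.5% of all genes). At d3 post-polytrauma against d3 post-fracture 3 were higher (Ndufa4l2, Cox4i2 and Bnip3) and 0 lower, beside 4.01% and 3.03% of all genes. Between the injuries at d5, 2 were higher post-polytrauma (Ndufa4l2 and Bnip3) and 1 lower (Cox4i2), beside 5.04% and 13.4% of all genes. This list was chosen with earlier results of these data known. Bnip3, a receptor for mitophagy, had 22.6, 75.2, 119.9, 47.9 and 74.4 CPM, and Pdk1, which inhibits pyruvate dehydrogenase, 2.84, 8.95, 12.9, 17.6 and 21.6 CPM. Higd1a had 135, 516, 487, 281 and 355 CPM and the protease Lonp1 16.1, 14.1, 17.5, 20.0 and 28.9 CPM.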

How the data were processed

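Single cell RNA was measured in 5 libraries. The authors deposited raw UMI counts per gene and barcode, aligned to mm10 and counted with Cell Ranger (3.1.0 in the matrix headers, a later release in the study's methods). The labels name 1 kit for all libraries. Members and lists were chosen with earlier results of these data known. From the counts, CPM over retained cells, log2 ratios with a pseudocount of 1 CPM and exact Poisson or binomial 95% intervals were computed in Python 3.11.15 (numpy 2.4.6, scipy 1.17.1, pandas 2.3.3, matplotlib 3.10.9). Genes entered a comparison with at least 20 UMIs over both libraries. The text names mitochondrial members, isoform sets, the 4 highest and 4 lowest nuclear ratios per comparison among members with at least 100 UMIs, and the highest and lowest member of each complex. Other names were added after values were seen. Doublets were not called. Retained UMIs were 17941601 at d0 and 52047940 to 202735422 elsewhere. Positions come from GENCODE M21 (GRCm38), which held all 101 members. The functions for CPM, log2 ratios and intervals of ratios were tested on simulated Poisson counts. The grouping by complex and the median-of-ratios scaling were not part of that test.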

Additional observations from a re-analysis of the deposited data

Results flagged for a closer look

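Cox4i2 moved in opposite directions in the 2 injuries. From d3 to d5 its log2 ratio was 2.41 post-fracture and -1.02 post-polytrauma, and polytrauma against fracture gave 2.37 at d3 and -1.06 at d5. With 1 library per condition the difference between these ratios was not tested. The d5 post-fracture value fell with the removal of cells with cartilage genes, as described above.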

How the results depend on the processing

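No paired analysis was possible because each condition has 1 library. The median ratio of the nuclear members and that of the mitochondrial members kept their sign in all 6 comparisons under 9 alternatives that leave the conditions as used. Alternatives moved the nuclear medians as follows. Median-of-ratios scaling gave 0.72 (d3 post-fracture against d0), -1.19 (d5 against d3 post-fracture), 0.57 (d3 post-polytrauma against d0), 0.35 (polytrauma against fracture at d5) and -0.71 (d5 against d3 post-polytrauma). Equal weight of cells gave 0.35, -0.55 and 0.17 for the first, the second and the fourth of these, and -0.20 for polytrauma against fracture at d3. Leaving out dividing cells gave -0.66 for d5 against d3 post-fracture and 0.31 for polytrauma against fracture at d5, and thinning to 2000 UMIs gave 0.11 for d3 post-polytrauma against d0.

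With the conditions as deposited the nuclear medians were -0.17 (d5 against d3 post-fracture), -0.31 (d3 post-polytrauma against d0), -0.60 (polytrauma against fracture at d3), -0.22 (at d5) and 0.27 (d5 against d3 post-polytrauma). The mitochondrial medians changed sign to 0.54 (d3 post-polytrauma against d0), 1.22 (polytrauma against fracture at d5) and -0.76 (d5 against d3 post-polytrauma). That for d5 against d3 post-fracture went from 1.97 to 0.03, with 0 of 13 higher, and that for polytrauma against fracture at d3 from 0.03 to 1.97, with 13 of 13 higher. Sdhaf1 changed to -0.25 (d5 against d3 post-fracture), Cox7a1 to -0.23 (polytrauma against fracture at d3), -1.45 (at d5) and 0.95 (d5 against d3 post-polytrauma), and Uqcrc1 to -0.52 and Atp5g1 to -0.35 (polytrauma against fracture at d5). Ndufa4l2 changed from 1.53 to -0.42 for polytrauma against fracture, at d3 and at d5. These changes follow from which library carries which condition.

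The mitochondrial share of member UMIs, in the order d0, d3 post-fracture, d3 post-polytrauma, d5 post-fracture and d5 post-polytrauma, was 65.7%, 40.4%, 44.9%, 75.4% and 62.6% with no limit on it per cell, 65.7%, 43.3%, 48.1%, 74.7% and 66.7% with equal weight of cells, 64.2%, 43.4%, 48.0%, 76.5% and 66.1% after thinning, and 65.0%, 40.9%, 45.3%, 74.5% and 61.9% without the 5% of cells with most UMIs. Without dividing cells it was 40.7%, 45.1%, 74.2% and 61.9% after injury. With part of the shared barcodes left out it was 64.6% at d0 and 61.2% at d5 post-polytrauma. Few cells of d5 post-fracture were left out there, so most of its barcodes shared with d5 post-polytrauma stayed in. Whether the d5 post-fracture values hold without all shared barcodes was therefore not tested. In cells with at least 2000 UMIs the mitochondrial share was 63.7% at d0 and 61.2% at d5 post-polytrauma. The alternatives chosen after seeing the data were cells with at least 2000 UMIs and leaving out cells with mural or with cartilage genes. The last turned Cox4i2 between the injuries at d5 from -1.06 to 0.27. Among the single-member values that were compared, 448 stayed within their counting interval, 224 moved beyond it and 10 changed sign. These counts do not cover every sign change. Under median-of-ratios scaling alone, 11 of 85 nuclear members changed sign at d3 post-polytrauma against d0, and 14 of 85 at d5 against d3 post-polytrauma. Members below about 1 CPM, such as Cox6a2, are limited by depth at d0.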
